A study of Rattus norvegicus with 38 samples.

Results

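The genes described are 5 members of the rat antigen presentation machinery: the MHC class I heavy chain RT1-A (ENSRNOG00000038999), its partner beta-2-microglobulin B2m (ENSRNOG00000017123), the class II invariant chain Cd74 (ENSRNOG00000018735) and the class II alpha chains RT1-Da (ENSRNOG00000032844) and RT1-Ba (ENSRNOG00000000451). They were chosen by Ensembl ID, and all 5 were found among the 32883 IDs of the count table. The table gives no gene names, so the names are those under which the set was drawn up, and they could not be checked against the reference, which holds no Ensembl ID. The strain difference of the heavy chain in these same libraries was known when the set was drawn up, so its strain values are given as a description with no test.

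Small pieces of cortex were cut out with a laser from the frontal brain, and their RNA was sequenced from the 3' end. The animals were SHRSP rats, the stroke-prone spontaneously hypertensive strain, and Wistar rats, which served as the comparison strain. Vessel libraries came from cortical blood vessels and neuron libraries from clusters of cortical neurons of the same 19 numbered animals. Each material had 5 SHRSP and 4 Wistar libraries of the late stage (32 to 34 weeks of age), and 5 SHRSP and 5 Wistar libraries of the early stage (24 to 25 weeks). No treatment is given for any group, the labels do not give the animals' sex, and Wistar rats are an outbred stock.

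MHC class I molecules, a heavy chain bound to B2m, display peptides made inside the cell to CD8 T cells, and most cells with a nucleus carry them. In the brain they are typically high on endothelium and low on neurons. MHC class II molecules display peptides taken up from outside the cell to CD4 T cells. Cd74 escorts their alpha and beta chains through the cell, and in the brain they are found mainly on microglia and on macrophages at vessels and borders. The rat MHC is called RT1. Its RT1-A genes are highly variable between strains and have close copies, and RefSeq lists 3 of them in the assembly GRCr8, RT1-A1, RT1-A2 and RT1-A3. Counts of the heavy chain ID are uncertain: how reads of other RT1 alleles and copies were placed was not tested, and a strain difference in placement cannot be told apart from one in expression. In such bulk captures, fewer cells of a type and less RNA per cell cannot be told apart either.

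Totals lay between 1612966 and 4963429 counts per library in vessels and between 1198386 and 4101901 in neurons. The animals also fell into sets by how much of the neuron library went to a single abundant ID, the same in every library. That share was over 15% in 11 animals (all 9 late ones, early SHRSP 383 and early Wistar 349) and lower in the 8 others, so stage and library set coincided in 17 of 19 animals and cannot be told apart there. Vessel libraries held 9875 to 11974 IDs with a count in the late groups, 4104 to 10207 in early SHRSP and 5833 to 11754 in early Wistar animals. A filter on low counts kept all 5 members in vessels and only the heavy chain and B2m in neurons.

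The class I heavy chain stood far higher in SHRSP than in Wistar vessels at both stages. In late SHRSP vessels it measured 503, 496, 303, 351 and 304 CPM (counts scaled to a common, TMM-normalized library total), against 99.7, 54.1, 61.1 and 76.6 CPM in late Wistar vessels. In early SHRSP vessels it measured 1557, 2602, 599, 578 and 667 CPM, against 15.1, 273, 4.42, 24.0 and 106 CPM in early Wistar vessels. The strains did not overlap: the lowest SHRSP library, at 303 CPM, lay above the highest Wistar library, that of early animal 343. Over all 11011 IDs tested in vessels, 0.00908% had every SHRSP library above every Wistar library, and this ID was the only such case.

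The fitted strain difference of the heavy chain in vessels, SHRSP over Wistar, was a log2 fold of 2.42 (SE 0.56) in late and 3.83 (SE 0.54) in early animals. The 4 vessel groups share 1 estimate of the spread per ID in this fit, so these SEs do not measure the spread within a stage. The groups differed in spread. The coefficient of variation was 25.7% in late SHRSP, 27.8% in late Wistar, 73.6% in early SHRSP and 134% in early Wistar vessels. The early spread came from a few libraries, SHRSP 374 and 377 at the top and Wistar 343 and 368 above the other 3 Wistar libraries. Without animal 343 the early log2 fold was 4.92, the highest value on leaving out an animal, and the lowest was 3.26.

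Neurons showed the same direction at a lower level. The heavy chain measured 91.6, 31.3, 69.1, 54.5 and 69.8 CPM in late SHRSP neurons, against 25.3, 16.7, 12.7 and 23.3 CPM in late Wistar neurons. It measured 89.8, 126, 116, 57.6 and 89.0 CPM in early SHRSP neurons, against 21.2, 43.2, 28.3, 27.5 and 12.6 CPM in early Wistar neurons. Within each stage the strains did not overlap, which 1.12% of the 10833 IDs tested did in that direction in late and 1.17% in early neurons. Across stages they overlapped through late SHRSP animal 379 (31.3 CPM) and early Wistar animal 343 (43.2 CPM). The log2 fold of SHRSP over Wistar was 1.70 (SE 0.33) in late and 1.85 (SE 0.30) in early neurons. Animal 343 thus had the highest heavy chain level among Wistar animals in both of its libraries.

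**Figure D1:**
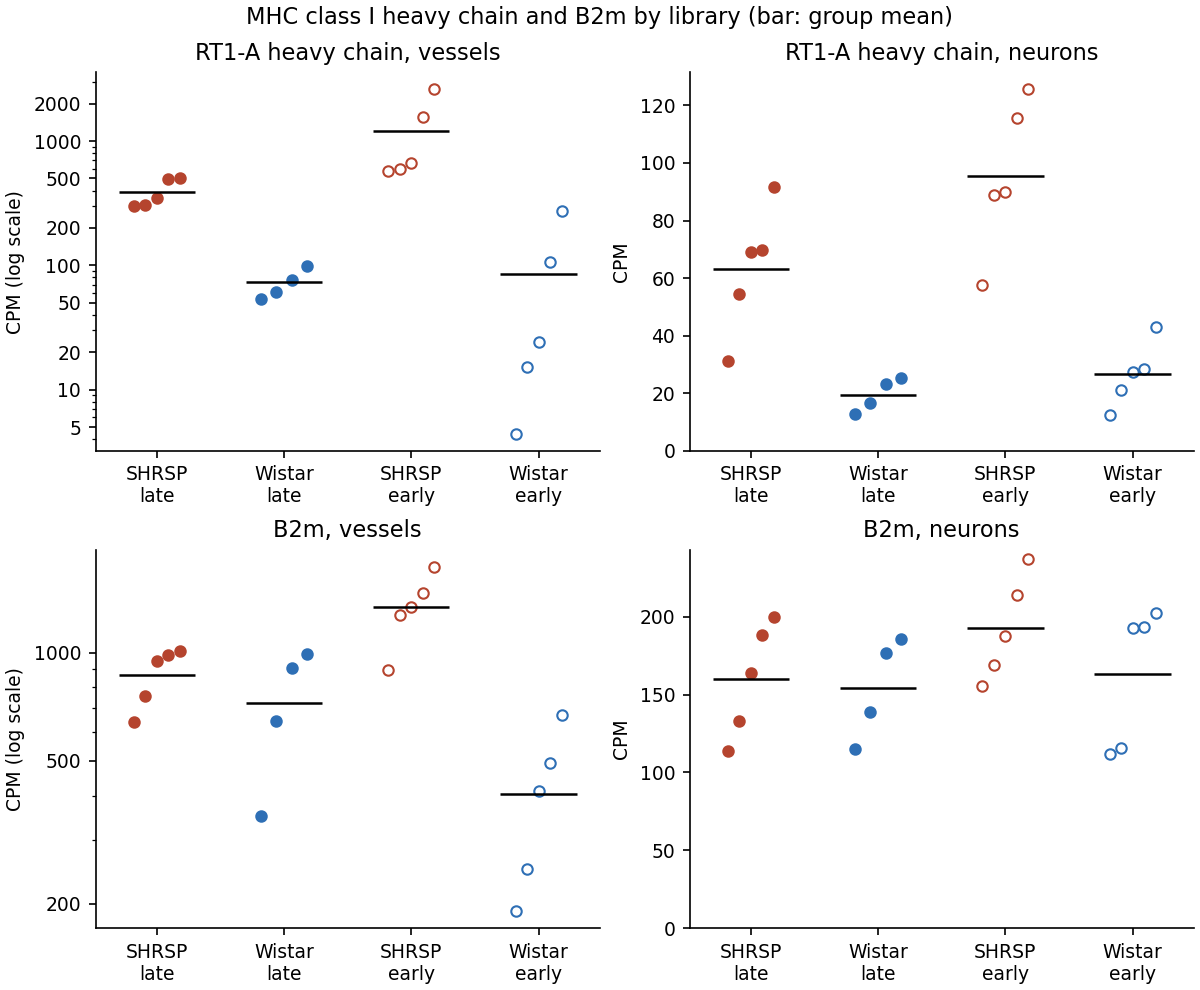
Level in CPM of the RT1-A heavy chain (top) and B2m (bottom) in vessel (left, log scale) and neuron libraries (right, linear scale from 0), 1 point per library and a bar at the group mean. Heavy chain points of SHRSP vessels start at 303 CPM, above all Wistar vessel points, while B2m separates the strains in early vessels and overlaps elsewhere.

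B2m, the invariant light chain that class I heavy chains need to fold and reach the cell surface, was higher in SHRSP than in Wistar vessels at the early stage. It measured 895, 1270.3, 1468, 1343 and 1734 CPM in early SHRSP vessels, against 412, 191, 493, 671 and 249.8 CPM in early Wistar vessels. The groups did not overlap, which was so in that direction for 0.218% of the 11011 IDs tested. The difference was 3.33-fold (log2 fold 1.73, SE 0.39, adjusted p = 0.00882, edgeR quasi-likelihood test with Benjamini-Hochberg adjustment), where 0.254% of the IDs tested were called in either direction and the median log2 fold of all IDs was -0.20. Of the 4 members tested for strain in early vessels, B2m was the 1 called. The call was lost without early Wistar animal 343 (log2 fold 1.48, adjusted p = 0.0935) or 340 (log2 fold 1.67, adjusted p = 0.0659), among low-share animals alone (1.90, adjusted p = 0.0669) and with no filter on low counts (1.70, adjusted p = 0.0787). Over all alternatives its adjusted p ran from 3.70e-05 to 0.0935 and its log2 fold from 1.48 to 2.02.

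In late vessels B2m measured 950.4, 985, 642, 1007 and 758 CPM in SHRSP animals, against 908, 644, 350.2 and 992 CPM in Wistar animals. These ranges overlapped, and the log2 fold was 0.26 (SE 0.41, unadjusted p = 0.516 in edgeR). No ID passed in late vessels, where the percentage called was 0% and 102 of the 11011 IDs had an unadjusted p under 0.05, while DESeq2 called 11 IDs and limma voom 1. The fit takes its spread from late and early libraries together, so a missing call there does not show equal levels. With only the 2 late groups fitted, edgeR called 1 ID. Whether the strain difference of B2m changed with stage was tested in its own contrast, late minus early, and did not pass (log2 fold -1.47, SE 0.56, adjusted p = 0.533 in edgeR, where 0.00908% of IDs were called). Over the mean of both stages the log2 fold was 0.999 (SE 0.28, adjusted p = 0.138 in edgeR), against 0.0817% of IDs called. Without early SHRSP animal 377 that mean passed (adjusted p = 0.00688), as it did without early Wistar animal 349 (adjusted p = 0.0497), and over all alternatives its adjusted p ran from 0.00688 to 0.310.

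By group mean, another measure differed between the strains in the same direction as B2m in early vessels. The 333 other IDs found at least 2-fold higher in vessels than in neurons took 9.35% ± 0.846 of the counts in early SHRSP vessels and 3.95% ± 2.13 of those in early Wistar vessels (SD, 5 libraries each). In the late groups they took 5.50% ± 1.56 in SHRSP (n = 5) and 4.34% ± 0.816 in Wistar vessels (n = 4). Library by library, the share did not follow B2m within the early groups. In early SHRSP animals 374, 377, 380, 383 and 386 it was 10.5, 9.72, 9.45, 8.74 and 8.33%. B2m was lowest in 374 (895 CPM) and highest in 386 (1734 CPM). In early Wistar animals 340, 343, 346, 349 and 368 the share was 2.43, 3.06, 3.43, 3.11 and 7.71%. B2m was 250 CPM in 368 and highest in 349 (671 CPM). The IDs of this share were chosen in a fit that included the same libraries. The part of the share in the B2m and heavy chain values was not tested.

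In neurons B2m was at nearly the same level in all groups. It averaged 160 ± 36.5 CPM in late SHRSP (n = 5), 154 ± 32.9 in late Wistar (n = 4), 193 ± 33.1 in early SHRSP (n = 5) and 163 ± 45.2 CPM in early Wistar neurons (SD, n = 5). The strain log2 fold was 0.05 (SE 0.21) in late and 0.24 (SE 0.20) in early neurons, neither called by edgeR, with unadjusted p of 0.812 and 0.241. Over both stages it was 0.15 (SE 0.15, adjusted p = 0.908). The share of IDs called was 0.0369% in late neurons, 0.222% in early neurons and 0.674% over both. The levels ran from 114 to 199.98 CPM in late SHRSP, 115 to 186 in late Wistar, 156 to 237 in early SHRSP and 112 to 202 CPM in early Wistar neurons, so each group overlapped every other.

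The promoter of B2m is shown because class I genes are known targets of interferon signalling, and the letters of the interferon-stimulated response element lie in it. The sequence is RefSeq's for GRCr8, chr3:129549080-129549379 on the plus strand, from 250 bases before the start site to 50 after it, with matches in capitals.
B2m promoter: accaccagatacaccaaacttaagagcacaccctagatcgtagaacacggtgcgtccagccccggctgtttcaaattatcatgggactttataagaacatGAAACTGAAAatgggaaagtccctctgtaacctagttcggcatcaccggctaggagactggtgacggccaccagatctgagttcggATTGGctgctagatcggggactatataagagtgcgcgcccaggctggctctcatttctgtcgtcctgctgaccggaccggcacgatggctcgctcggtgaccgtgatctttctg
The core of the response element, a pair of GAAA runs with any 2 bases between them, matched at -150 to -141 from the start site, and 3.92% of the 33469 promoters of that length held a match on either strand. CCAAT matched on the minus strand at -64 to -60, as it did somewhere in 37.5% of promoters. This exact pair of GAAA runs was not found in the same windows of RT1-A1, RT1-A2 and RT1-A3. Looser forms of the element were not searched for, so this does not show that these promoters lack it. Which of these the heavy chain ID stands for is not known here.

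Since heavy chain and B2m join in the same complex, their counts were set against each other within each library, where the scaling between libraries cancels. The ratio was 55.8, 23.6, 34.5, 28.9 and 61.5 heavy chain counts per 100 B2m counts in late SHRSP neurons, against 18.2, 9.47, 11.03 and 12.5 in late Wistar neurons. It was 53.2, 80.8, 48.8, 30.7 and 41.6 in early SHRSP neurons, against 18.9, 21.4, 14.6, 14.3 and 10.9 in early Wistar neurons. On this ratio the strains did not overlap in neurons even with the stages joined. Set against B2m in the same way, 0.0369% of the other 10832 IDs had every SHRSP neuron library above every Wistar one.

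In late vessels the ratio was 45.1 ± 7.46 in SHRSP (SD, n = 5; 34.8 to 52.9) and 11.1 ± 4.44 in Wistar animals (n = 4; 7.73 to 17.5), again without overlap, as for 0.263% of the IDs. In early vessels it was 174, 205, 40.8, 43.0 and 38.4 in SHRSP animals, against 3.67, 143, 0.896, 3.58 and 42.3 in Wistar animals, and the strains overlapped. Early Wistar 343 and 368 had ratios within the SHRSP range, and the other 3 had lower ratios than any late Wistar vessel library. The heavy chain is part of this ratio, so it is a description of the strains and carries no test.

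**Figure D2:**
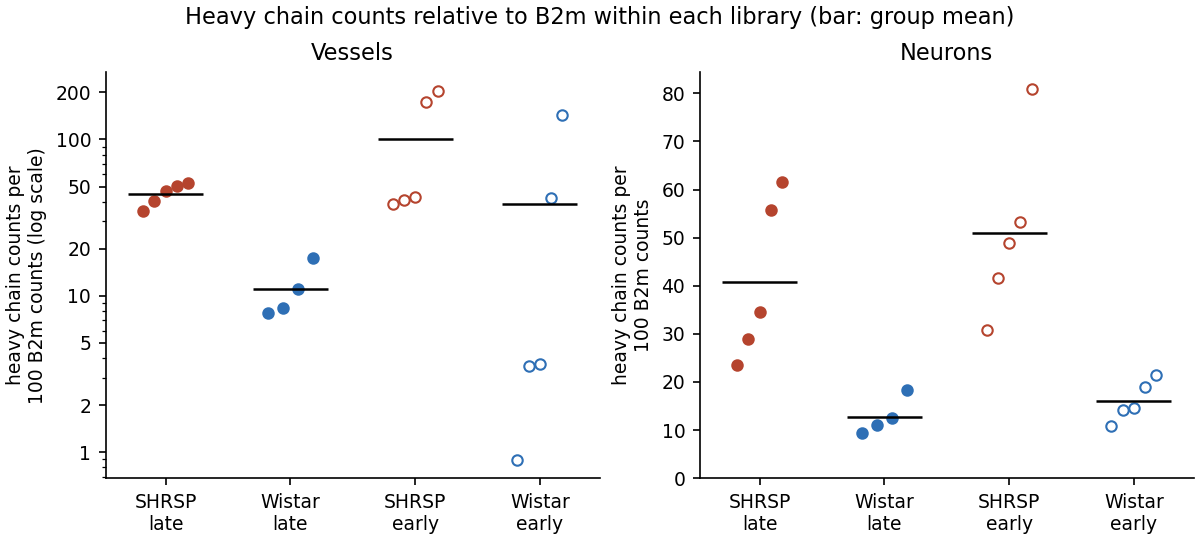
Heavy chain counts per 100 B2m counts in each vessel library (left, log scale) and neuron library (right, linear scale from 0), with a bar at the group mean. SHRSP neurons lie between 23.6 and 80.8 and Wistar neurons between 9.47 and 21.4, while early Wistar vessels spread from 0.896 to 143.

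The class II members were read from few counts, most of them in vessels. Neuron libraries held at most 10 counts of Cd74, 4 of RT1-Da and 5 of RT1-Ba. In late SHRSP neurons RT1-Ba had no count in 5 libraries, each of which allows a level of up to 0.8287 to 1.40 CPM (3 counts per library, for counting error only). All 3 stayed under the filter in neurons and were not tested for strain or stage there.

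Cd74, the chaperone of class II chains, had the most counts of the 3. Late SHRSP vessels held 110, 84, 179, 244 and 13 counts of it, against 97, 33, 89 and 132 counts in late Wistar vessels. Early SHRSP vessels held 658, 0, 0, 168 and 0 counts, against 0, 1, 0, 115 and 29 counts in early Wistar vessels. Every one of the 9 late vessel libraries thus held Cd74, and 5 of the 10 early ones did. The early high-share animals, SHRSP 383 and Wistar 349, had 168 and 115 counts, within the range of the late animals. The log2 fold of SHRSP over Wistar was 0.15 (SE 1.67, unadjusted p = 0.928 in edgeR) in late and 2.88 (SE 1.69, adjusted p = 0.419) in early vessels, and neither passed. The early SHRSP level rests mainly on animal 374 with its 658 counts, and the early log2 fold ran from 0.31 to 4.99 on leaving out single animals.

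RT1-Da, the alpha chain of the rat D molecule, had 0, 15, 22, 1 and 29 counts in late SHRSP vessels, against 129, 26, 0 and 32 in late Wistar vessels. It had 0, 0, 0, 0 and 107 counts in early SHRSP vessels, against 0, 0, 161, 19 and 490 in early Wistar vessels. A single library, that of animal 386, held all 107 counts of early SHRSP vessels. The log2 fold of SHRSP over Wistar was -1.40 (SE 1.98, unadjusted p = 0.477 in edgeR) in late and -2.50 (SE 1.97, adjusted p = 0.595) in early vessels. Without animal 386 early SHRSP vessels had no count of RT1-Da. The early log2 fold was then -10.01, which is no bound, and it did not pass either.

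RT1-Ba, the alpha chain of the rat B molecule, had 0, 32, 42, 0 and 9 counts in late SHRSP vessels, against 57, 0, 7 and 28 in late Wistar vessels. It had 0, 0, 0, 3 and 0 counts in early SHRSP vessels, against 53, 0, 226, 11 and 1 in early Wistar vessels. The early log2 fold of -6.71 (SE 2.60, adjusted p = 0.183 in edgeR) rests on those 3 counts and is no bound. Without SHRSP animal 383, which held them, early SHRSP vessels had no count and the ID passed (adjusted p = 0.0424; over all alternatives 0.0424 to 0.374). In late vessels the log2 fold was -0.34 (SE 2.14, unadjusted p = 0.875).

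The class II chains were read together in some vessel libraries and apart in others. At least 10 counts of all 3 were found in 5 of the 19 vessel libraries, of 2 in 4, of 1 in 7 and of none in 3. Late SHRSP vessels had all 3 chains in 2 of 5 libraries, late Wistar in 2 of 4, early SHRSP in 0 of 5 and early Wistar in 1 of 5. The library with the most Cd74, of early SHRSP 374 with 658 counts, had no count of RT1-Da or RT1-Ba. The library with the most RT1-Da, of early Wistar 368 with 490 counts, had 29 of Cd74 and 1 of RT1-Ba, and that with the most RT1-Ba, of early Wistar 346 with 226 counts, had 161 of RT1-Da and 0 of Cd74. Fewer IDs were detected in the vessel libraries of low-share animals in general, and the part of that in these gaps was not tested.

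**Figure D3:**
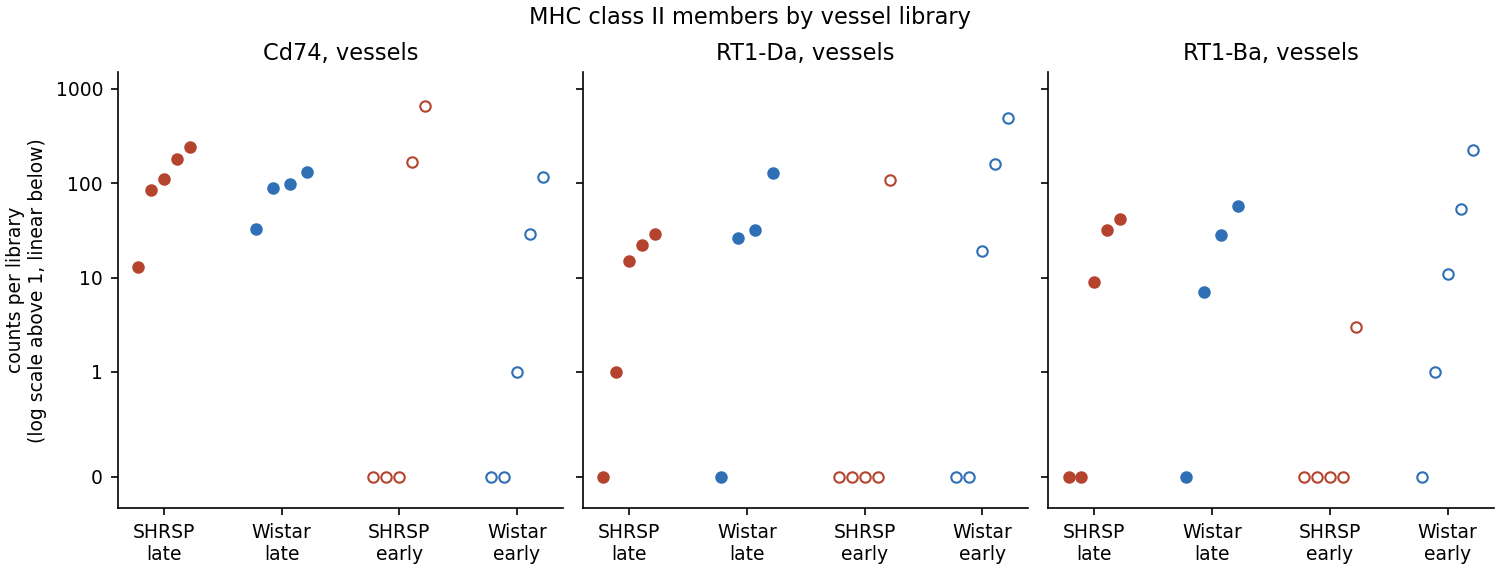
Counts of Cd74, RT1-Da and RT1-Ba in each vessel library, on an axis that is linear up to 1 count and logarithmic above. Late libraries hold 13 to 244 counts of Cd74, while 5 of 10 early libraries are at 0, and in early SHRSP vessels RT1-Da and RT1-Ba each rest on a single library, with 107 and 3 counts.

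Class II promoters carry a known shared module, of which the Y box is a reversed CCAAT, and they are shown because these chains are known to be switched on together by the coactivator Ciita. The sequences are RefSeq's for GRCr8 on the plus strand, chr18:56526956-56527255 for Cd74, chr20:4515165-4515464 for RT1-Da and chr20:4576807-4577106 for RT1-Ba, with CCAAT or its reverse complement ATTGG in capitals.
Cd74 promoter: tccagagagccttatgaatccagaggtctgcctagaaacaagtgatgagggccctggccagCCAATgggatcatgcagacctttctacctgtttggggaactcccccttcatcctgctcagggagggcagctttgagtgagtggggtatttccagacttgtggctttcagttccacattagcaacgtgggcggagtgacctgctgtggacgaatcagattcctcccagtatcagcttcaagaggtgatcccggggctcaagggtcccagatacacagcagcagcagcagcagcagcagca
RT1-Da promoter: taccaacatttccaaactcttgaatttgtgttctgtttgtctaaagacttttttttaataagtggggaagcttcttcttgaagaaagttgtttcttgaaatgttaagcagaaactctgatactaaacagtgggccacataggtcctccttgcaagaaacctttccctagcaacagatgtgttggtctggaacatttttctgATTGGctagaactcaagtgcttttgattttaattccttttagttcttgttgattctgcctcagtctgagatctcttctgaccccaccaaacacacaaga
RT1-Ba promoter: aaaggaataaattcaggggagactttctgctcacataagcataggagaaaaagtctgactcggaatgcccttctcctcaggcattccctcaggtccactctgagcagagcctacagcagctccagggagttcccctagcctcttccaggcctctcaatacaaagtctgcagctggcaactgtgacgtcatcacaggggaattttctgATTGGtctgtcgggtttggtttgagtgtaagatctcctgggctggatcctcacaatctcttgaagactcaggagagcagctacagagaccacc
The match stood on the minus strand at -49 to -45 in RT1-Da and at -43 to -39 in RT1-Ba, and on the plus strand at -189 to -185 in Cd74. The exact pair of GAAA runs searched for in B2m was not found in these windows, and looser forms were not searched for. With CCAAT in 37.5% of all promoters, a match in each of these is a description and no more.

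Vessels were set against neurons of the same animals over all 38 libraries, with the animal as a block. The heavy chain was higher in vessels in 16 of 19 animals, 4.31-fold in the fit (log2 fold 2.11, SE 0.32, adjusted p = 9.09e-09, edgeR). B2m was higher in vessels in 18 of 19 animals, 4.39-fold (log2 fold 2.14, SE 0.23, adjusted p = 2.72e-18, edgeR). Of the 12117 IDs tested, 3.08% were higher in vessels and 47.5% lower, with a median log2 fold of -1.63, so both members lie on the rarer side. The fit shares 1 spread per ID between vessels and neurons, so the size of such small p-values should not be read closely.

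All 3 animals with less heavy chain in vessels than in neurons were early Wistar. On the scale of the 38 libraries, early Wistar 340 had 14.9 CPM in vessels and 21.8 in neurons, early Wistar 346 had 4.37 and 28.9, and early Wistar 349 had 23.9 and 28.2 CPM. The 1 animal without higher B2m in vessels was early Wistar 343, at 189 CPM in vessels and 195 in neurons. In SHRSP animals both members were higher in vessels in 5 of 5 late and 5 of 5 early animals. The heavy chain averaged 387 ± 99.5 CPM in the vessels and 62.9 ± 23.0 CPM in the neurons of late SHRSP animals, and 1193 ± 881 and 99.2 ± 27.9 CPM in those of early SHRSP animals (SD, n = 5 each).

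The strain difference of the heavy chain in vessels minus that in neurons was a log2 fold of 1.80 (SE 0.63). It is built from the strain values by which this ID was known, and is a description with no test. It was 0.72 among the high-share animals of the late groups and 2.74 among low-share animals, all of them early. For B2m the same contrast was 0.91 (SE 0.44, adjusted p = 0.860 in edgeR) and did not pass, where 0% of 12117 IDs passed and 686 had an unadjusted p under 0.05, while DESeq2 called 324 IDs and limma voom 1.

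**Figure D4:**
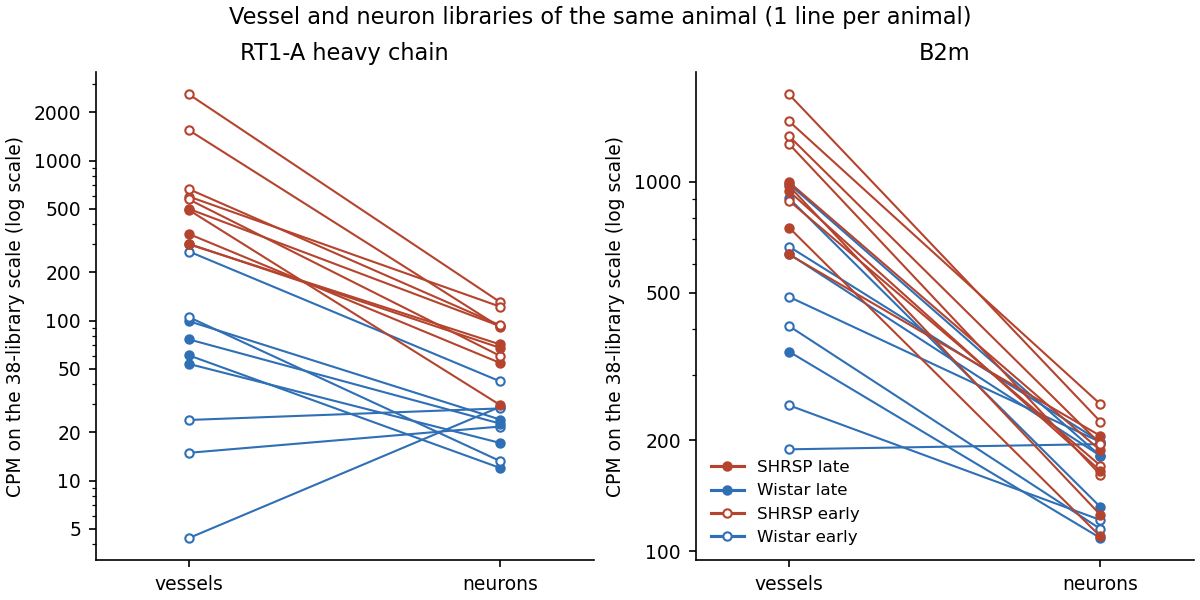
Heavy chain (left) and B2m (right) in CPM on the scale of all 38 libraries (log axis), with a line from the vessel to the neuron library of each animal. Heavy chain lines fall towards neurons in 16 of 19 animals and B2m lines in 18 of 19, and the 3 heavy chain lines that rise are early Wistar animals.

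The class II members failed the filter on low counts in neurons and entered the joint fit through the vessel libraries, so their fitted folds and calls there give no support and are left out. Over all 19 animals Cd74 had 1952 counts in vessels and 41 in neurons, RT1-Da 1031 and 24, and RT1-Ba 469 and 17. Cd74 was higher in vessels in 13 animals, lower in 5 and at 0 in both libraries in 1. RT1-Da and RT1-Ba were each higher in vessels in 10 of 19 animals. The vessel counts were uneven: a single library held 658 of the Cd74 counts, another 490 of those of RT1-Da and another 226 of those of RT1-Ba. Both class I members were also called higher in vessels among low-share animals alone, all of them early, with adjusted p of 0.0036 for the heavy chain and 0.0012 for B2m in edgeR.

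No member was called between late and early animals in either strain or material. In edgeR 0 of 5 passed in vessels and 0 of 2 in neurons for each strain. An unadjusted p under 0.05 was reached by the heavy chain in SHRSP vessels and by B2m in Wistar vessels, and 0 members were called by DESeq2 or by limma voom. The background was 0.00908% of IDs called in SHRSP and in Wistar vessels, 8.85% in SHRSP neurons and 9.31% in Wistar neurons. The heavy chain was lower in late than in early SHRSP vessels without overlap, at 303 to 503 CPM against 578 to 2602 CPM (log2 fold -1.62, SE 0.50, adjusted p = 0.188 in edgeR), and 0.245% of the IDs tested in vessels lay without overlap in that direction. Late over early, the log2 fold of B2m was -0.63 (SE 0.38, adjusted p = 0.521) in SHRSP vessels and 0.84 (SE 0.40, unadjusted p = 0.0362) in Wistar vessels. The median log2 fold of all IDs was 0.45 in SHRSP and 0.21 in Wistar vessels, and stage coincides with the library sets named above.

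In neurons the late over early log2 fold of the heavy chain was -0.59 (SE 0.29, adjusted p = 0.192 in edgeR) in SHRSP and -0.44 (SE 0.33, adjusted p = 0.403) in Wistar animals. For B2m it was -0.27 (SE 0.20, adjusted p = 0.409) in SHRSP and -0.08 (SE 0.21, adjusted p = 0.848) in Wistar animals. The class II members in vessels had late over early log2 folds with SEs of 1.60 to 2.34, and none passed. The strain difference of the heavy chain in late minus that in early animals was a log2 fold of -1.40 (SE 0.71) in vessels and -0.15 (SE 0.44) in neurons, again as a description. For B2m in neurons it was -0.19 (SE 0.29, unadjusted p = 0.523 in edgeR). There 0% of IDs were called for such a change by edgeR, DESeq2 or limma voom, and 254 had an unadjusted p under 0.05 in edgeR.

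In order of mean level in vessels, the heavy chain stood at 1201 ± 884 CPM in early SHRSP, 391 ± 101 in late SHRSP, 84.5 ± 113 in early Wistar and 72.9 ± 20.2 CPM in late Wistar animals (SD, n = 5, 5, 5 and 4). The SHRSP groups did not overlap each other or the Wistar groups, and the Wistar groups overlapped each other. B2m stood at 1342 ± 306 CPM in early SHRSP, 868 ± 160 in late SHRSP, 723 ± 290 in late Wistar and 403 ± 193 CPM in early Wistar vessels, and each group overlapped its neighbour in this order. The order of the Wistar groups for the heavy chain rests on animal 343: their medians were 68.9 CPM in late and 24.0 CPM in early vessels, and the late over early log2 fold was -0.21 with all animals and 1.05 without 343.

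**Figure D5:**
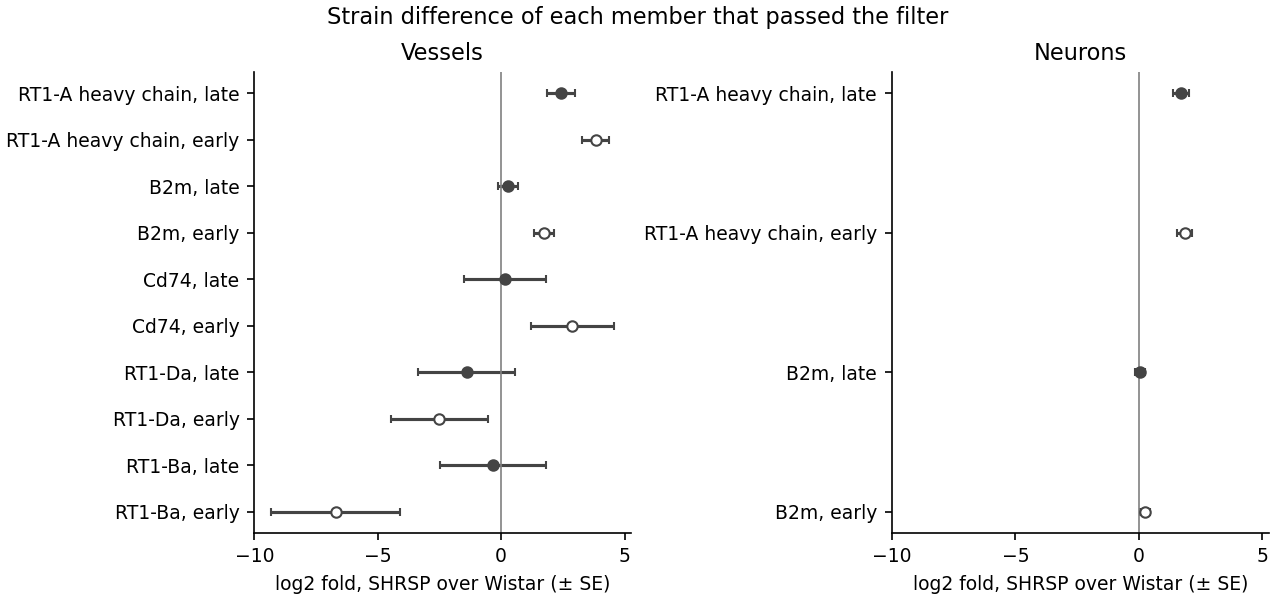
Log2 fold of SHRSP over Wistar with its SE for each member that passed the filter on low counts, in vessels (left) and neurons (right), with late animals as filled and early animals as open points. The heavy chain lies between 1.70 and 3.83 in all 4 comparisons and is shown as a description, while the class II folds in vessels have SEs of 1.67 to 2.60.

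Other IDs were ranked by how closely their log2 CPM followed each member over the 19 libraries of a material, as a description of libraries that share strain, stage and library set. In vessels the heavy chain was followed most closely by ENSRNOG00000000525 (Pearson's r = 0.85) and ENSRNOG00000055962 (0.83), and in neurons by ENSRNOG00000033545 (0.88) and ENSRNOG00000010915 (0.86). B2m was followed in vessels by ENSRNOG00000021155 (0.85) and ENSRNOG00000015277 (0.84), and in neurons by ENSRNOG00000021027 (0.83) and ENSRNOG00000007069 (0.82). In vessels the class II members had Cd74 with ENSRNOG00000013321 (0.92) and ENSRNOG00000002546 (0.91), RT1-Da with ENSRNOG00000028274 (0.88) and ENSRNOG00000027797 (0.85), and RT1-Ba with ENSRNOG00000018910 (0.89) and ENSRNOG00000037310 (0.89). Both IDs named with RT1-Ba had counts in 9 of the 19 vessel libraries, and those named with Cd74 and RT1-Da in 14 or 15. With Cd74, 87 IDs had an r over 0.8. The part of shared zeros in these r was not tested.

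The members did not follow each other closely. Heavy chain and B2m had r = 0.52 over the vessel libraries, where B2m ranked 144th of 11010 IDs, and 0.48 over the neuron libraries, where it ranked 488th of 10832. After the mean of each group was taken off, r was -0.52 in vessels, rank 10180, and 0.47 in neurons. Between class II members r was 0.39 for RT1-Da with RT1-Ba, -0.10 for Cd74 with RT1-Da and -0.03 for Cd74 with RT1-Ba over the vessel libraries. RT1-Ba and the heavy chain had r = -0.68 there, with RT1-Ba ranked 10938th of 11010, in a member with counts in 11 of 19 libraries.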

How the data were processed

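Laser-cut vessel and neuron material of 19 rats gave 38 libraries, made from PicoPure RNA with the QuantSeq 3' forward kit, per the labels' protocols. Reads come from transcript ends, so longer transcripts do not gain counts. The deposited table holds raw whole-number counts by Ensembl ID, and every column was tied to a sample. Per the submitters' processing notes, the tools were STAR 2.5.3a, HTSeq 0.6.1, FastQC 0.11.5 and DESeq2 1.18.1, without their roles. Build, annotation and strand setting were not given in the sources used here, and without strand, overlapping genes cannot be told apart.

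The counts of each material were fitted on their own with edgeR 4.0.16 (R 4.3.3), the 4 groups being the terms, with edgeR's filter on low counts, TMM scaling and the robust quasi-likelihood F test, two-sided. This left 11011 IDs in vessels and 10833 in neurons. A joint fit over 12117 IDs had the animal as a block and a material effect in each group, whose mean is reported. A call is a Benjamini-Hochberg adjusted p under 0.05 over all IDs tested. Each SE was derived from the F statistic. The block rests on the animal number that 2 titles share. Once group means were removed, vessel and neuron libraries of an animal correlated by -0.219 to 0.402 (median 0.0490, 5 of 19 pairs over 0.1). Replicates are separately numbered animals. Among 72 library pairs within groups, the lowest chi-square per degree of freedom was 4.88, so none was a repeat.

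The members and lists were chosen with earlier results of these data known. All 5 members are named in each comparison, together with the 2 IDs of highest r for each member. Lists of antigen presentation genes and cell type markers could not be applied, since the table gives no names and the RefSeq table (GRCr8) no Ensembl IDs, so the cut material was not checked against markers. RefSeq promoters were matched by symbol for 4 of the 5 members. The fits were also run on simulated counts with 1 spread per ID in all libraries and no animal effect. Those runs do not cover groups of unequal spread. Alternatives were DESeq2 1.42.0, limma 3.58.1 voom, median-of-ratios scaling (RLE), no filter, fewer groups, single library sets, no block and leaving out each animal. The labels mention no molecular identifiers, and limits drawn from counts include no other error than that of counting.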

Additional observations from a re-analysis of the deposited data

Results flagged for a closer look

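In 7 of 39 groups of 4 or 5 libraries, a single library stood apart from the others of its group by Dixon's criterion. Chance flags about 1 of 20 groups of continuous values, but that rate does not hold here: all 7 concern class II members with few counts, and in 4 of them the other libraries were all at 0, which passes by construction. In early SHRSP vessels, Cd74 stood at 304 CPM in animal 374 against 0 to 47.1 in the others, RT1-Da at 35.4 CPM in animal 386 against 0, and RT1-Ba at 0.841 CPM (3 counts) in animal 383 against 0. In early Wistar vessels, RT1-Ba stood at 90.8 CPM in animal 346 against 0 to 20.5 in the others, and Cd74 at 39.5 CPM in animal 349 against 0 to 7.73. In late Wistar neurons, Cd74 stood at 0.629 CPM (2 counts) in animal 354 and RT1-Ba at 0.322 CPM (1 count) in animal 351, against 0 in the others.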

How the results depend on the processing

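Of 1035 tested log2 folds of members recomputed under the alternatives, 978 kept their direction and their side of the threshold, 13 lost a call, 14 gained one and 30 changed sign. Of 218 values of the heavy chain's strain contrasts, given with no test, 216 kept their direction. In early vessels 1 member (B2m) was called for strain, against 0 with no filter on low counts, 0 among low-share animals and 0 to 2 on leaving out single animals. Over both stages 0 to 1 were called in vessels on leaving out animals. For the strain difference in vessels minus that in neurons the heavy chain had a log2 fold of 1.96 with DESeq2, given as a description with no test. None of the other members was called for it in any setting. In the joint fit both class I members were called higher in vessels in every setting. In the main setting 3.08% of the 12117 IDs were called higher there. That fit called 6124 IDs in either direction, and 3075 without the replicate block. The class II members entered it through the vessel libraries, so their calls give no support. Those calls changed with the setting, gained for RT1-Da and lost for RT1-Ba, and are among the gains and losses counted above. Among low-share animals the class II members were filtered out, and 2 of 2 tested were called. After group means were removed, another ID than before ranked first for the heavy chain (r = 0.879), B2m (0.784) and RT1-Da (0.876) in vessels. The first-ranked ID also changed in neurons, for the heavy chain (0.809) and for B2m (0.827). Cd74 and RT1-Ba kept the same ID first in vessels. The r of heavy chain with B2m in vessels was then -0.520. All of the sign changes were in log2 folds that no setting called (lowest adjusted p 0.225). Under limma voom the late over early log2 fold in vessels was 3.17 for Cd74 (ENSRNOG00000018735) and 1.48 for RT1-Da (ENSRNOG00000032844) in SHRSP, and 0.031 for RT1-Da and 0.88 for the heavy chain (ENSRNOG00000038999) in Wistar animals. Among the high-share animals of the late groups, the strain difference in vessels minus that in neurons was 1.298 for RT1-Ba (ENSRNOG00000000451) and 0.30 for RT1-Da. For Cd74 this difference was 0.046 with RLE scaling, 0.33 with voom, 1.38 with no replicate block and -1.51 to 1.04 on leaving out animals. On leaving out animals the strain log2 fold in late vessels ran from -0.99 to 0.47 for RT1-Ba and from -0.21 to 0.46 for Cd74, and that of B2m in late neurons from -0.064 to 0.15. Late over early it ran from -1.60 to 1.29 for Cd74 and -1.37 to 6.89 for RT1-Da in SHRSP vessels, -0.52 to 1.05 for the heavy chain in Wistar vessels, and -0.19 to 0.043 for B2m (ENSRNOG00000017123) in Wistar neurons. The strain difference of late minus that of early animals ran from -0.12 to 8.63 for RT1-Da in vessels and -0.41 to 0.029 for the heavy chain in neurons. Without animal 386 early SHRSP vessels had no count of RT1-Da, so its log2 folds against that group are then no bound. The causes were not tested. Over all IDs, 28 were called for strain in early vessels (9 to 481 over settings, 7 to 1137 on leaving out animals), 9 over both stages in vessels (0 to 139), 0 in late vessels (0 to 11), 73 over both stages in neurons (64 to 159), 24 in early neurons (1 to 73) and 4 in late neurons (0 to 19). For stage 959 were called in SHRSP neurons (646 to 2033), 1009 in Wistar neurons (83 to 1556), 1 in SHRSP vessels (0 to 1252) and 1 in Wistar vessels (0 to 34). For the strain difference of late minus early animals 1 was called in vessels (0 to 128). With RLE scaling 796 higher and 184 lower IDs were called for stage in SHRSP neurons, against 663 and 296, and the median log2 fold of vessels over neurons was -1.44, against -1.63. Class II members are limited by depth, with 0 to 658 counts per vessel library.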
